A study of Rattus norvegicus with 2 samples.

Results

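The genes described here are the splicing factors and RNA helicases of H9c2, a myoblast cell line established from the heart of rat embryos. Members were all protein-coding genes whose symbol starts with Srsf, Sf3, Snrp, Snrnp, Prpf, Lsm and a digit, Hnrnp, Ddx or Dhx, and whose FPKM averaged at least 1 over the 2 libraries. FPKM scales a gene's fragments by the length of its transcript and by the size of the library, so levels of different genes can be compared per length. The rule found 62 members among 4366 genes that passed the same minimum. One culture received 2.5 mM phosphate (high phosphate) and the other 0.9 mM phosphate (control), both without serum and for 12 h. With 1 library for each condition no test was possible and nothing could be checked in replicates, so every statement compares these 2 libraries. The files hold no read counts, so the depth behind each value is unknown.

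Splicing removes introns from pre-mRNA. Small nuclear ribonucleoproteins (snRNPs), built on rings of Sm or Lsm proteins, recognise the intron ends and form the spliceosome, while SR proteins and hnRNP proteins guide the choice of splice sites. DEAD-box (Ddx) and DEAH-box (Dhx) helicases use ATP to remodel RNA and its bound proteins. Some drive steps of the spliceosome, and others act in ribosome assembly in the nucleolus, in mRNA export and in translation.

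Of the labelled line's myoblast markers, Des, which encodes the intermediate filament desmin, was listed at 153.3 FPKM in high phosphate and 128.5 FPKM in the control, and Myod1 at 1.59 FPKM in high phosphate and 6.11 FPKM in the control, while Myog and Mymk were near 0. The 3 listed cardiomyocyte markers were at or near 0 (Myh7 at 0 in both, summed FPKM 0.36 in high phosphate and 0.21 in the control). Listed endothelial markers were near 0 as well (0.31 in high phosphate and 0.06 in the control). Listed macrophage markers were low (1.47 in high phosphate and 1.06 in the control), mostly from Cd68 (1.38 in high phosphate and 1.06 in the control), with Ptprc at 0 in both. Tnnt2, Myh6, Actc1, Myf5, Adgre1, Cdh5 and Krt18 were not analysed here. The 5 fibroblast markers had summed FPKM of 1176 in high phosphate and 729 in the control, mostly from Col3a1 and Thy1. Col3a1 had 843.7 FPKM in high phosphate and 488.6 FPKM in the control, and Thy1 316.6 FPKM in high phosphate and 231.9 FPKM in the control. Dcn had 8.63 FPKM in high phosphate and 5.11 FPKM in the control, and Lum 6.97 FPKM in high phosphate and 3.63 FPKM in the control. Pdgfra was listed at 0 in both. Of the epithelial markers, Krt8 was abundant at 246.6 FPKM in high phosphate and 139.7 FPKM in the control, and Cdh1 and Epcam were near 0. The part of these markers in the results below was not tested. All listed FPKM summed to 346857 in high phosphate and 307622 in the control.

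The RefSeq gene table names 152 protein-coding genes under these prefixes, of which 70 were listed in the files and 62 passed the minimum. The other 82 were not analysed here, among them Srsf1, Srsf3, Sf3b1, Hnrnpk, Ddx3x and Dhx9. Under the minimum were Ddx51, Ddx56, Ddx59, Ddx6, Dhx58, Hnrnph3, Prpf39 and Snrpn. Just outside it lay Ddx59, with 0.88 FPKM in high phosphate and 0.75 FPKM in the control, and just inside it lay Ddx25, with 1.79 FPKM in high phosphate and 0.52 FPKM in the control. Passing members ranged up to Snrpf, with a mean of 199 FPKM. Of the 62, 4 were under 1 FPKM in 1 of the libraries, namely Hnrnpa3 and Ddx25 in the control and Ddx42 and Snrnp70 in high phosphate.

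Most members were slightly lower in high phosphate, and large differences were few. By log2((high phosphate FPKM + 1)/(control FPKM + 1)), called the log2 ratio here, 43 of the 62 members were lower and 19 higher, whereas 49.4% of all compared genes were lower and 50.5% higher. The added 1 understates differences of low genes. In bulk RNA, less RNA per cell and fewer cells with the transcript cannot be told apart. The median log2 ratio was -0.11 for the members and 0.00 for all compared genes. Among the 58 members with at least 1 FPKM in both libraries the median was also -0.11, with 41 lower and 17 higher. The interquartile range of the log2 ratios was 0.32 for the members and 0.40 for all compared genes. Log2 ratios within 0.5 of 0 were found for 87.1% of members and 85.8% of compared genes. Log2 ratios of -0.25 or less were found for 16 members (25.8%) and 17.4% of compared genes, and ratios of 0.25 or more for 6 members (9.68%) and 22.7% of compared genes.

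At least 2-fold higher was 1 member, Hnrnpa3 (Entrez 362152), and at least 2-fold lower were 2, Ddx42 (Entrez 303607) and Snrnp70 (Entrez 361574). After rescaling to the same sum their log2 ratios were 2.46, -2.43 and -1.36, so all 3 stayed past 2-fold. Over all compared genes 1.76% were at least 2-fold higher and 0.87% at least 2-fold lower. At 1.5-fold, 3 members were higher (4.84%) and 2 lower (3.23%), against 7.21% and 3.37% of compared genes. Each of the 3 members past 2-fold was under 1 FPKM in the library where it was low. A value near 0 can be a failed estimate in FPKM files, and the files cannot tell this from low expression.

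Direction by sign depended on how the libraries were scaled. Rescaling both to the same sum over all listed entries moved the median log2 ratio of all compared genes to -0.15 and that of the members to -0.28. After it, 52 members and 67.8% of compared genes were lower. Relative to the median of all compared genes, the members' median was 0.11 log2 units lower as deposited and 0.13 lower after rescaling, and 43 and 44 of the 62 members lay below that median.

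**Figure D1:**
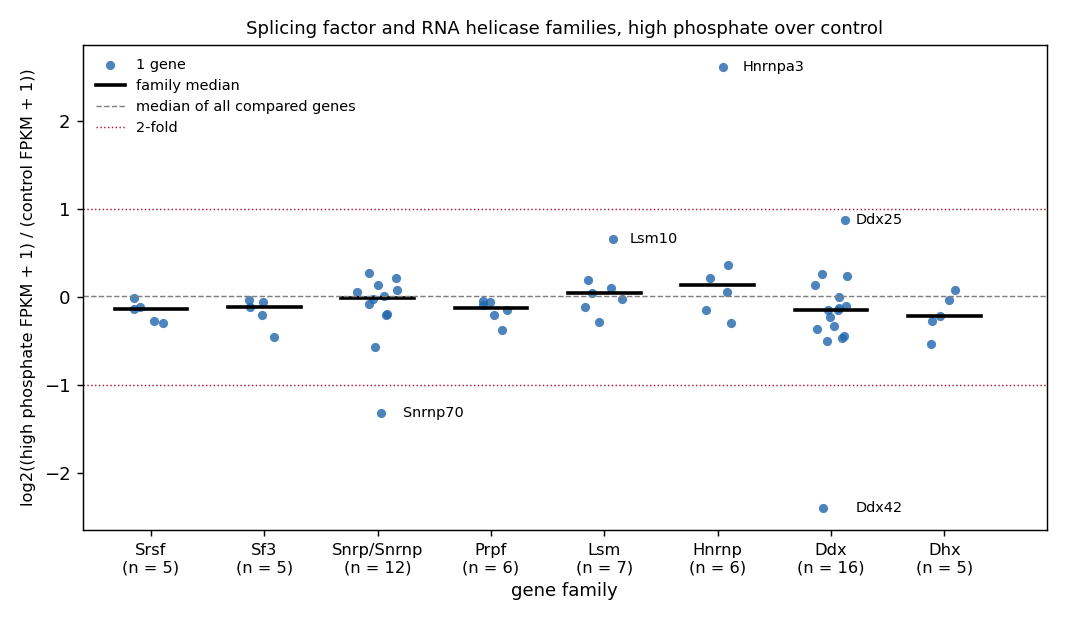
Log2 ratio of high phosphate to control FPKM (with 1 added to each) for each member, by gene family; each point is 1 gene, black bars are family medians, the dashed line is the median of all compared genes and dotted lines mark 2-fold. Hnrnpa3 lies above the upper 2-fold line and Ddx42 and Snrnp70 below the lower one, while all points of the Srsf, Sf3 and Prpf families lie below the dashed line.

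Directions varied by family. All members of the Srsf, Sf3 and Prpf families, 16 in total, were lower in high phosphate, beside 49.4% of all compared genes. Their joint median log2 ratio was -0.13, and all 16 lay below the median of all compared genes under both scalings. These are the families in which no member was higher, so the joint count follows from which families were joined. The helicases were mostly lower, 12 of 16 Ddx members (median -0.15) and 4 of 5 Dhx members (median -0.22). The snRNP genes (Snrp and Snrnp) were 6 higher and 6 lower as deposited, with a median of -0.01, and 2 higher and 10 lower at the same sum, with a median of -0.18. At the same sum 67.8% of all compared genes were lower, with a median of -0.15. Below the median of all compared genes lay 6 of the 12 snRNP genes as deposited and 7 at the same sum. The Lsm members had a median of 0.05, with 4 of 7 higher, and the Hnrnp members 0.14, with 4 of 6 higher. After rescaling to the same sum, the Lsm median was -0.12 and the Hnrnp median -0.02, both still above that of all compared genes. Family medians cover 5 to 16 genes and carry no test.

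**Figure D2:**
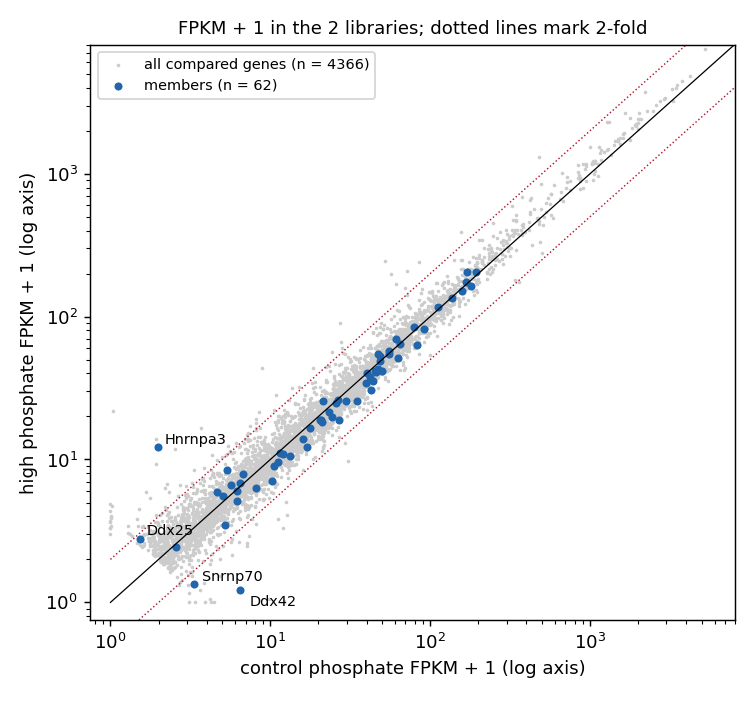
FPKM + 1 in high phosphate (vertical, log axis) against control (horizontal, log axis); each point is 1 gene, grey for all 4366 compared genes and blue for the 62 members, the solid line marks equal values and dotted lines 2-fold. Members lie between the dotted lines except Hnrnpa3 above them and Ddx42 and Snrnp70 below them, all 3 at low values in 1 library. Ddx25 lies near the upper dotted line.

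The SR proteins bind exonic enhancers through RNA recognition motifs and recruit the spliceosome through domains rich in arginine and serine. Srsf2 (SC35), the most abundant of the family, was listed at 161.8 FPKM in high phosphate and 178.0 FPKM in the control, a log2 ratio of -0.14. Srsf5 had 18.8 FPKM in high phosphate and 23.4 FPKM in the control, the lowest log2 ratio of the family at -0.30. Srsf6 followed with 40.6 FPKM in high phosphate and 49.2 FPKM in the control, a log2 ratio of -0.27. These were the larger differences of the family, while Srsf4, at 18 FPKM in high phosphate and 19.6 FPKM in the control, and Srsf9, at 63.5 FPKM in high phosphate and 64.2 FPKM in the control, were closer to equal.

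The hnRNP proteins coat nascent RNA, and several of them silence exons. Hnrnpa3, a relative of hnRNP A1 and A2, was listed at 11.2 FPKM in high phosphate and 0.98 FPKM in the control, with a log2 ratio of 2.62, the third highest of all compared genes. Hnrnpa3l1 is named as a like gene in the RefSeq table, and the sources used here do not say how reads shared with copies were assigned. The other 5 were under 2-fold. Hnrnpf and Hnrnph1 bind runs of guanines; Hnrnpf had 4.93 FPKM in high phosphate and 3.62 FPKM in the control, and Hnrnph1 115.6 FPKM in high phosphate and 111.3 FPKM in the control. Hnrnpdl had 5.63 FPKM in high phosphate and 4.70 FPKM in the control. Lower were Hnrnpul1, with 34.7 FPKM in high phosphate and 42.7 FPKM in the control, and Hnrnpll, a regulator of alternative splicing in lymphocytes, with 36.5 FPKM in high phosphate and 40.7 FPKM in the control. Without Hnrnpa3, the median log2 ratio of the family was 0.05.

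Among genes of the U1 snRNP, which pairs with the 5′ splice site, all 3 members were lower, beside 49.4% of all compared genes. Snrnp70, the U1-70K protein, was listed at 0.34 FPKM in high phosphate and 2.35 FPKM in the control, a log2 ratio of -1.32. Snrpa, which encodes the A protein of the particle, had 24.8 FPKM in high phosphate and 28.7 FPKM in the control, and Snrpc, which encodes the C protein, 33.3 FPKM in high phosphate and 38.4 FPKM in the control, so these partners had log2 ratios of -0.20 each. The RefSeq table names 10 pseudogenes of Snrpc.

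The Sm proteins form the ring of most spliceosomal snRNPs, and Snrpf, Snrpd2 and Snrpd3 were the 3 most abundant members. Snrpf had 204.6 FPKM in high phosphate and 193.4 FPKM in the control, Snrpd2 202.8 FPKM in high phosphate and 168.2 FPKM in the control, Snrpd3 173.7 FPKM in high phosphate and 167.0 FPKM in the control, and Snrpb 148.9 FPKM in high phosphate and 157.9 FPKM in the control. As deposited 3 of the 4 were higher, and after rescaling to the same sum Snrpd2 alone was, with a log2 ratio of 0.10 (0.27 as deposited). The median of all compared genes was then -0.15, and 1 of the 4 lay below that median under both scalings.

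In the U2 snRNP, which binds the branch site, 5 of 7 members were lower, beside 49.4% of all compared genes. The median log2 ratio of these 7 was -0.06. Sf3b3 of the SF3b complex stood lowest, with 11.3 FPKM in high phosphate and 15.9 FPKM in the control, a log2 ratio of -0.46. Its partner Sf3b5 had 133.0 FPKM in high phosphate and 136.4 FPKM in the control. The SF3a subunits Sf3a1 and Sf3a3 had 17.2 and 42.3 FPKM in high phosphate, against 19.99 and 46.1 FPKM in the control, and Sf3a2 was low in both at 1.45 FPKM in high phosphate and 1.56 FPKM in the control. The A′ and B″ proteins of the particle, encoded by Snrpa1 and Snrpb2, were higher or level. Snrpa1 had 53.8 FPKM in high phosphate and 46.1 FPKM in the control, and Snrpb2 47.7 FPKM in high phosphate and 47.4 FPKM in the control.

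The U4/U6.U5 tri-snRNP brings the catalytic RNAs into the spliceosome. Of the 8 members grouped with it here, 7 were lower, beside 49.4% of all compared genes. However, 6 of these 7 had log2 ratios within 0.25 of 0. The exception in size was Prpf8, the scaffold of the catalytic centre, with 5.28 FPKM in high phosphate and 7.17 FPKM in the control, a log2 ratio of -0.38. Snrnp200, the helicase that unwinds U4 from U6, had 25.04 FPKM in high phosphate and 25.5 FPKM in the control. Prpf4 had 12.8 FPKM in high phosphate and 14.9 FPKM in the control and Prpf38a 40.2 FPKM in high phosphate and 44.8 FPKM in the control. Prpf6 had 23.9 FPKM in high phosphate and 24.9 FPKM in the control, Prpf31 15.5 FPKM in high phosphate and 16.7 FPKM in the control, and the second-step factor Prpf18 4.98 FPKM in high phosphate and 5.19 FPKM in the control. Snrnp27 was the 1 higher member, with 52.0 FPKM in high phosphate and 47.3 FPKM in the control. At the same sum it was slightly lower, with a log2 ratio of -0.04, beside a median of -0.15 for all compared genes. Snrnp35, the counterpart of U1-70K in the minor spliceosome, had 2.49 FPKM in high phosphate and 4.19 FPKM in the control, a log2 ratio of -0.57.

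Lsm proteins form rings around the 3′ end of U6 RNA (Lsm2 to Lsm8) and, in the cytoplasm, on mRNAs that are being degraded (with Lsm1 in place of Lsm8). Lsm10 belongs instead to the U7 snRNP, which processes histone pre-mRNA, and it was the highest of the 7, with 7.48 FPKM in high phosphate and 4.39 FPKM in the control, a log2 ratio of 0.65. Within the U6 ring, log2 ratios ran from -0.29 (Lsm2) to 0.19 (Lsm3). The central 95% of compared genes at a similar level ran wider, from -0.42 to 0.79. Lsm3 had 68.7 FPKM in high phosphate and 60.3 FPKM in the control and Lsm5 83.6 FPKM in high phosphate and 78.0 FPKM in the control, whereas Lsm2 had 50.3 FPKM in high phosphate and 61.5 FPKM in the control. Lsm8 at 56.1 FPKM in high phosphate and 54.3 FPKM in the control, and Lsm7 at 53.5 FPKM in high phosphate and 54.3 FPKM in the control, were nearly level. Lsm1 had 20.4 FPKM in high phosphate and 22.2 FPKM in the control. The signs of Lsm5 and Lsm8 turned after rescaling to the same sum, with log2 ratios of -0.07 and -0.12, whereas Lsm3 remained higher at 0.02. Each of them stayed above the median of all compared genes, which was then -0.15.

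**Figure D3:**
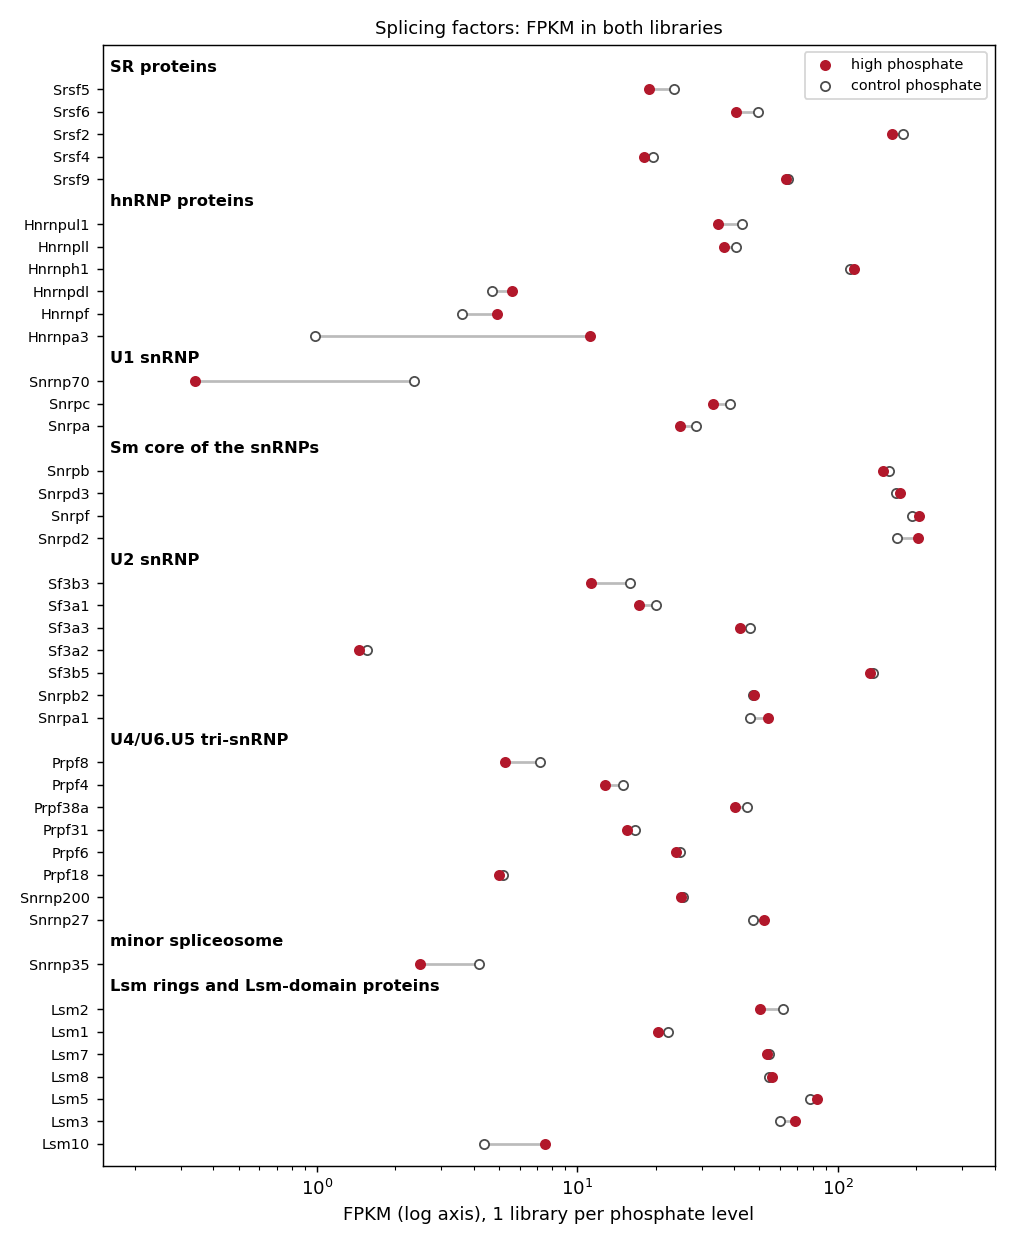
FPKM (log axis) in high phosphate (filled circles) and control (open circles) of each splicing factor, grouped by role and ordered by log2 ratio within a role; each circle is 1 library. The wide gaps belong to Hnrnpa3, with 11.2 FPKM in high phosphate and 0.98 FPKM in the control, and to Snrnp70, with 0.34 FPKM in high phosphate and 2.35 FPKM in the control.

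Among the helicases, those of ribosome assembly had the lowest median log2 ratio of any role with at least 3 members, at -0.44. Of these, 6 of 7 were lower, beside 49.4% of all compared genes. Dhx37, which acts on the precursor of the small subunit, had 6.11 FPKM in high phosphate and 9.31 FPKM in the control, a log2 ratio of -0.54. Ddx27 had 17.9 FPKM in high phosphate and 25.8 FPKM in the control (-0.51), Ddx21 29.7 FPKM in high phosphate and 41.4 FPKM in the control (-0.47), and Ddx18 24.6 FPKM in high phosphate and 33.8 FPKM in the control (-0.44). Listed FPKM of these 4 in high phosphate were 0.66 to 0.73 times those of the control. Of the 62 members, 4 lay outside the central 95% of log2 ratios of compared genes at a similar level (6.45%), namely Hnrnpa3, Ddx42, Snrnp70 and Ddx27. For Ddx27, in the fourth of 5 equal bins of mean FPKM, that range ran from -0.49 to 0.69. Ddx55, with 9.6 FPKM in high phosphate and 12.4 FPKM in the control, and Ddx10, with 9.96 FPKM in high phosphate and 11.0 FPKM in the control, were lower by less. Ddx24 was higher, with 4.52 FPKM in high phosphate and 4.03 FPKM in the control. At the same sum it was level, with a log2 ratio of -0.01, beside a median of -0.15 for all compared genes.

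The RefSeq table names 9 pseudogenes of Ddx21, and 2 pseudogenes and a like gene of Ddx18. Neither Ddx27 nor Dhx37 has such a named copy. Ddx50, a close relative of Ddx21 and its neighbour on chromosome 20, was grouped here with the transcription-linked and other helicases. By this choice of role it was not counted among the ribosome assembly helicases. Counted there, it would have joined Ddx24 as a member that was higher as deposited. Ddx50 differed the other way, with 24.5 FPKM in high phosphate and 20.4 FPKM in the control, a log2 ratio of 0.25.

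Promoter sequence is shown for the 3 most abundant ribosome assembly helicases, Ddx18, Ddx21 and Ddx27. In 250 bases before the annotated start, from RefSeq on GRCr8, windows were searched on both strands for CACGTG (the E-box), CCGGAAGT (a site of ETS factors) and TATAAA. A total of 63 windows of 59 members were found, and 3 members had none. The last 100 bases before the start are printed 5′ to 3′ on the gene's strand, with CACGTG and CCGGAAGT (on either strand) in capitals.
Ddx18 (chr13:35295973-35296072, minus strand): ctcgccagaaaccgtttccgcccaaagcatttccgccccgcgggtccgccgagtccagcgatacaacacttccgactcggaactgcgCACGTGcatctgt
Ddx21 (chr20:31097239-31097338, minus strand): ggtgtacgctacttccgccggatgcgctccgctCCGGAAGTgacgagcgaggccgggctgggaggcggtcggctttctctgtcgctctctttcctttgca
Ddx27 (chr3:176163120-176163219, plus strand): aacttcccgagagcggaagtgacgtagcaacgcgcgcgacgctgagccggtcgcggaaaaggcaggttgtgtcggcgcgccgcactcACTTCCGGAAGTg
Ddx18 holds the E-box, starting 13 bases before the start, and Ddx21 and Ddx27 hold CCGGAAGT; in Ddx27 its matches on both strands overlap. CCGGAAGT was in 12 of the 63 member windows (19.0%), 9.0% of 3767 windows of compared genes and 3.95% of 21842 windows of protein-coding genes. The E-box was in 6.35% of member windows, 9.03% of those of compared genes and 6.16% of all, and TATAAA in 3.17%, 6.64% and 12.1%. The 12 windows with CCGGAAGT belong to genes that were higher as deposited (Hnrnpf, Ddx50, Dhx8 and Snrnp27) as well as to lower ones. Of the 7 ribosome assembly helicases, 6 had a window. Among those, the E-box was found only in Ddx18 and CCGGAAGT only in Ddx21 and Ddx27, so neither was shared by the group. TATAAA was in 0 of the 6. These matches are a description of sequence, and binding was not measured.

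Of the spliceosomal helicases, 4 of 6 were lower, beside 49.4% of all compared genes, at a median log2 ratio of -0.11. Ddx42, a helicase bound to SF3b, was listed at 0.23 FPKM in high phosphate and 5.50 FPKM in the control, a log2 ratio of -2.40, the third lowest of all compared genes. Ddx39a, which also serves mRNA export, was the most abundant of them, with 62.7 FPKM in high phosphate and 81.2 FPKM in the control (-0.37). Dhx16, which drives the activation step ahead of the first cut, had 8.65 FPKM in high phosphate and 10.2 FPKM in the control. Ddx41 was level, with 39.3 FPKM in high phosphate and 39.4 FPKM in the control. Ddx23, which displaces U1 from the 5′ splice site, had 6.97 FPKM in high phosphate and 5.78 FPKM in the control. Dhx8, which releases the spliced mRNA, had 5.8 FPKM in high phosphate and 5.42 FPKM in the control. After rescaling to the same sum their log2 ratios were 0.08 and -0.06, both above the median of all compared genes at -0.15.

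Of the other helicases all but Ddx25 had log2 ratios within 0.5 of 0. Ddx19a, a factor of mRNA export, had 17.8 FPKM in high phosphate and 19.8 FPKM in the control, and Dhx36, which unwinds G-quadruplexes, 4.14 FPKM in high phosphate and 5.22 FPKM in the control. Ddx25, known from testis, was low in both, with 1.79 FPKM in high phosphate and 0.52 FPKM in the control, and its log2 ratio of 0.88 with 1 added became 1.61 with 0.1 added. Ddx28, a mitochondrial helicase, had 7.95 FPKM in high phosphate and 9.47 FPKM in the control. The most abundant helicase, Ddx1, which takes part in tRNA ligation, had 81.5 FPKM in high phosphate and 90.7 FPKM in the control. Ddx5, a coactivator of transcription, had 40.7 FPKM in high phosphate and 43.9 FPKM in the control, and Dhx32 10.1 FPKM in high phosphate and 10.4 FPKM in the control.

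**Figure D4:**
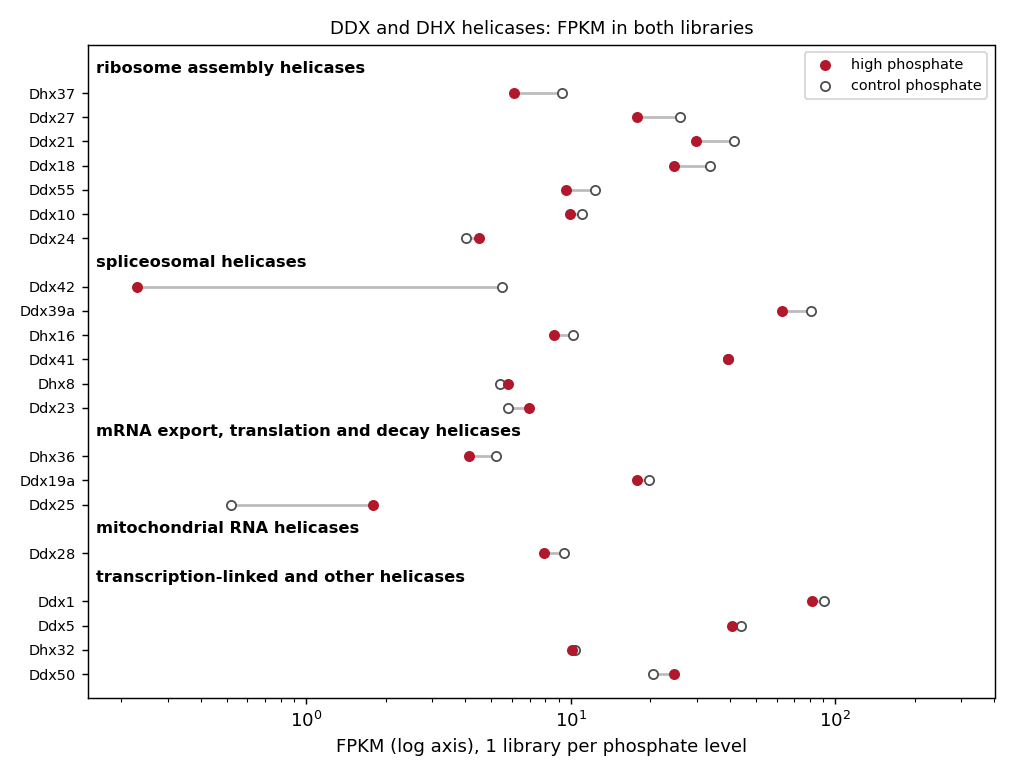
FPKM (log axis) in high phosphate (filled circles) and control (open circles) of each Ddx and Dhx member, grouped by role and ordered by log2 ratio within a role; each circle is 1 library. In the top group 6 of 7 filled circles lie left of the open ones, and the widest gap is that of Ddx42, with 0.23 FPKM in high phosphate and 5.50 FPKM in the control.

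A companion list of splicing genes and RNA helicases with other names had 76 compared genes of 176 written. Of these, 53 were lower and 22 higher, with a median log2 ratio of -0.12, beside -0.11 for the members. At the same sum 66 of the 76 were lower, with a median of -0.27. Over all compared genes 49.4% were lower as deposited and 67.8% at the same sum. Lower were 18 of 21 factors of the tri-snRNP, the Prp19 complex and the catalytic steps, 9 of 12 genes of snRNP assembly and 6 of 6 genes of branch site and splice site recognition. Among exon junction and export genes 5 of 8 were higher as deposited, with a median of 0.02. At the same sum 7 of 8 were lower, with a median of -0.15, the same as for all compared genes. Other RNA helicases were higher in 4 of 7 cases, with a median of 0.08 as deposited and -0.02 at the same sum, above the median of all compared genes under both scalings. The median of these 7 is the value of Dqx1 under both scalings. Of the higher ones, Dqx1, Upf1 and Skic2 were near the minimum, with means of 1.29, 1.86 and 1.32 FPKM, and Eif4a2 had a mean of 36.8 FPKM. Lowest were Ppil3, a cyclophilin of the spliceosome, with 2.29 FPKM in high phosphate and 10.96 FPKM in the control, and Bud31, with 0.96 FPKM in high phosphate and 2.80 FPKM in the control. Highest were Skic2, the helicase of the Ski complex in mRNA decay, with 2.64 FPKM in high phosphate and listed at 0 in the control, and Thoc7, a subunit of the THO export complex, with 3.28 FPKM in high phosphate and 1.34 FPKM in the control. At least 2-fold apart were Skic2 (higher) and Ppil3 (lower), beside 1.76% and 0.87% of all compared genes.

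After the values of the ribosome assembly helicases were seen, a list of other ribosome assembly factors was written to set beside them. Of its 55 compared genes 51 were lower in high phosphate, with a median log2 ratio of -0.29, and 51 lay below the median of all compared genes under both scalings. Abundant ones were nucleolin (Ncl), with 266.4 FPKM in high phosphate and 316.6 FPKM in the control, and fibrillarin (Fbl), the methyltransferase of small nucleolar ribonucleoproteins, with 105.8 FPKM in high phosphate and 127.8 FPKM in the control. The 60S export adaptor Nmd3 was the lowest, with 12.2 FPKM in high phosphate and 28.3 FPKM in the control, and Nop58 the highest, with 3.55 FPKM in high phosphate and 1.99 FPKM in the control.

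**Figure D5:**
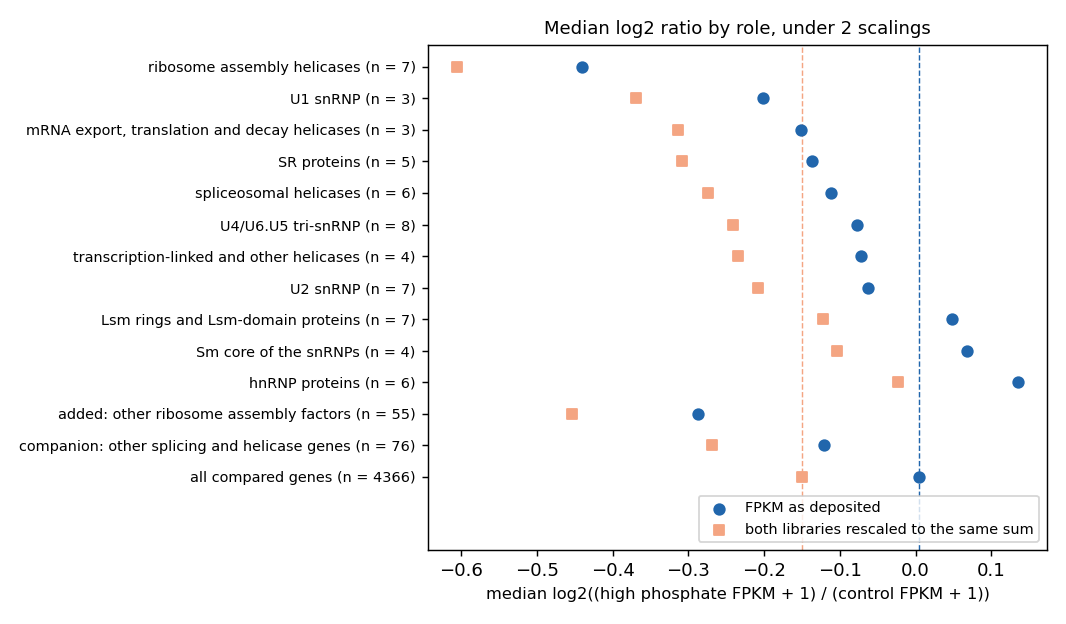
Median log2 ratio of high phosphate to control FPKM for each role with at least 3 members, for both added lists and for all compared genes, with FPKM as deposited (blue circles) and after rescaling both libraries to the same sum (orange squares); dashed lines mark the medians of all compared genes. Ribosome assembly helicases lie farthest left (-0.44 and -0.61), while Lsm, Sm and hnRNP genes lie right of the dashed line of their scaling.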

How the data were processed

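RNA from 2 H9c2 cultures was sequenced, 1 library each. The authors deposited FPKM, per the file headers, given to 2 decimals. Per the submitters' processing notes, the build was Rnor_6.0 and the tools included Cufflinks 2.2.1 with Cuffdiff, TopHat2 2.1.1 and bcl2fastq. The sources used here give no annotation, strand setting or handling of multiply mapped reads. Of 8039 entries, 236 had no usable identifier (2.94%) and were left out. Of the other 7803, 7746 matched a symbol in the RefSeq table for GRCr8, used only for names, neighbours and promoter sequence. Log2 ratios used a pseudocount of 1 on genes whose mean FPKM reached 1. Named members are those at least 2-fold apart, the extremes and most abundant of each family, and the extremes of each role; others are named where their role is described. Members, lists and thresholds were chosen with earlier results of these data known. The calculations were tested on simulated data. The alternatives were other pseudocounts, 3 scalings, 4 filters, a 1.5-fold threshold and 2 subsets of members. Python 3.11.15, numpy 2.4.6, pandas 2.3.3 and matplotlib 3.10.9 were used.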

Additional observations from a re-analysis of the deposited data

How the results depend on the processing

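No paired analysis was possible because each phosphate level had 1 library, and for the same reason no library could be left out. Rescaling both libraries to the same sum, which moves all genes down, gave median log2 ratios of -0.28 for the members, -0.31 for Srsf, -0.29 for Sf3, -0.18 for Snrp and Snrnp, -0.29 for Prpf, -0.12 for Lsm, -0.023 for Hnrnp, -0.32 for Ddx and -0.37 for Dhx, so the signs of Lsm and Hnrnp turned. From a mean of 10 FPKM, with fewer genes per family, the Hnrnp median was -0.15, again of the other sign, and the Dhx median -0.036. In the other alternatives run for them, the medians of the members and of the families moved by less than 0.1 log2 units, although the Snrp and Snrnp median, near 0 as deposited, turned positive under each of the 4 filters. Of 44 named members, 6 changed sign after rescaling to the same sum and 0 with other pseudocounts or with the other 2 scalings. With a pseudocount of 0.1 or 0.5, 2 members were at least 2-fold higher, since Ddx25 joined Hnrnpa3. At a threshold of 1.5-fold 3 were higher. From a mean of 5 FPKM 0 members were at least 2-fold lower, and from a mean of 10 FPKM, or with at least 1 FPKM in both libraries, 0 were at least 2-fold higher and 0 at least 2-fold lower, since those filters removed them. Members with a higher value were 10 after rescaling to the same sum, 11 of 44 from a mean of 10 FPKM and 10 of 39 without members that have a named copy, a subset chosen after seeing the data. The unknown depth limits what can be said of genes under a few FPKM.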
